A study of Rattus norvegicus with 35 samples.

Results

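A diet high in potassium was compared with a normal potassium diet in male rats by RNA sequencing of the kidney cortex. There were 12 male libraries, 6 on each diet, of the 35 libraries in the series, and all genes with at least 1 FPKM (fragments scaled by gene length and library size) in at least 5 of the 35 libraries were described. That rule kept 14264 of the 32545 genes in the table. The series asked how adding or withdrawing potassium alters salt-sensitive hypertension in each sex. Every diet held 4% NaCl. The normal diet (NK) held 0.36% potassium and the high diet (HK) 1.41%, and the third diet (DK) was deficient in potassium. Rats received a blood pressure telemeter at 8 weeks of age and ate a diet for 5 weeks before the cortex of a single kidney was frozen. The labels give the genotype as WT and do not name the strain. They identify each library by a sample number and do not say more about separate animals, so each p-value reflects how far these samples scatter, which may be in part technical.

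The kidney is the main organ of potassium balance. Potassium channels in the basolateral membrane of the distal convoluted tubule sense plasma potassium and, through the WNK kinases, set the activity of the sodium chloride cotransporter. Further downstream, aldosterone acts on principal cells, where sodium entry through the epithelial sodium channel (ENaC) drives potassium secretion through the apical channel encoded by Kcnj1. A high salt intake in salt-sensitive rats is known to damage tubules and glomeruli.

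The 12 libraries held 14.0 to 20.9 M reads in genes, and their mitochondrial share of reads was 7.65% to 12.5% in HK and 7.76% to 11.5% in NK (exact permutation test over 924 splits, two-sided p = 0.273). Markers of the cortex were present in every library: the proximal tubule phosphate transporter Slc34a1 stood at 793 FPKM or more and the podocyte gene Nphs1 at 3.76 FPKM or more. Pvalb, a marker of the early distal convoluted tubule, was at 0 FPKM in all 12. Of the genes for other tissue, the adrenal gene Cyp11b2 was at most 0.0232 FPKM and the inner medullary urea transporter Slc14a2 at most 0.64 FPKM. Others were not near the floor. The medullary gene Akr1b1 ranged from 16.6 to 31.2 FPKM in HK and from 20.4 to 25.4 FPKM in NK. Among adipose genes, Fabp4 ranged from 8.15 to 13.1 FPKM in HK and from 6.15 to 24.5 FPKM in NK. The blood gene Hbb reached 145 FPKM in HK and 142 FPKM in NK. One library in each group stood apart. HK replicate 5 and NK replicate 2 had the lowest mitochondrial shares of their groups, 7.65% and 7.76%. On the first principal component of the 12 libraries (19.7% of the variance), HK replicate 5 lay at -24.1 and NK replicate 2 at -25.3. The other NK libraries lay at -13.9 to 8.05 and the other HK libraries at 4.55 to 23.1. Both libraries had the highest summed level of the renal medulla list in their groups, 1133 and 796 FPKM (group medians 460 and 705 FPKM). That list includes the injury gene Clu, at 980.4 FPKM in HK replicate 5, so the sum does not measure medulla alone. The median log2 difference of its members from the NK mean was 0.17 in HK replicate 5 and 0.16 in NK replicate 2, also the highest of each group. Their summed levels of proximal tubule transport genes were the lowest of their groups, 4384 and 4258 FPKM. For gene lists and some genes, results that rest on either library are given below with and without it. For other genes only the fit with all 12 libraries is given, which does not mean that they are free of that dependence. In bulk cortex, fewer cells of a type and less RNA per cell cannot be told apart.

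Across all genes, no difference between HK and NK males passed the test. With limma and Benjamini-Hochberg adjustment, 0 of 14264 genes (0.0%) had an adjusted p under 0.05, and the smallest adjusted p was 0.413. At an unadjusted p under 0.05 there were 1076 genes (7.54%), 471 higher in HK (3.3%) and 605 lower (4.24%). A count model on reads recovered from the FPKM values (voom) also called 0 genes, with 1140 at an unadjusted p under 0.05. The precision was enough to bound most genes: the median standard error of a log2 difference was 0.13, and for 92.6% of genes the 95% interval lay within a 2-fold change in either direction, for 78.3% within 1.5-fold. An estimate beyond 2-fold was reached by 70 genes (0.491%).

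The result depended on how libraries were weighted. When limma estimated a weight for each of the 35 libraries, HK replicate 5 received 0.51 and NK replicate 2 received 0.68. Male HK replicate 4 received the highest weight, 2.82, and female DK replicate 3 the lowest, 0.18. Which libraries the calls of that fit rest on was not tested. The weighted fit called 387 genes, 142 higher in HK (0.996%) and 245 lower (1.72%). Leaving out HK replicate 5 raised the genes at an unadjusted p under 0.05 to 1966, and limma then called 5, all lower in HK: Snx4, Nudt21, Parp9, Kdm1a and Anxa2 (adjusted p = 0.0376 for each). Parp9 is named here after its values were seen. Values below are from all 12 libraries unless another set is named, and no gene named below passed the test there.

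**Figure D1:**
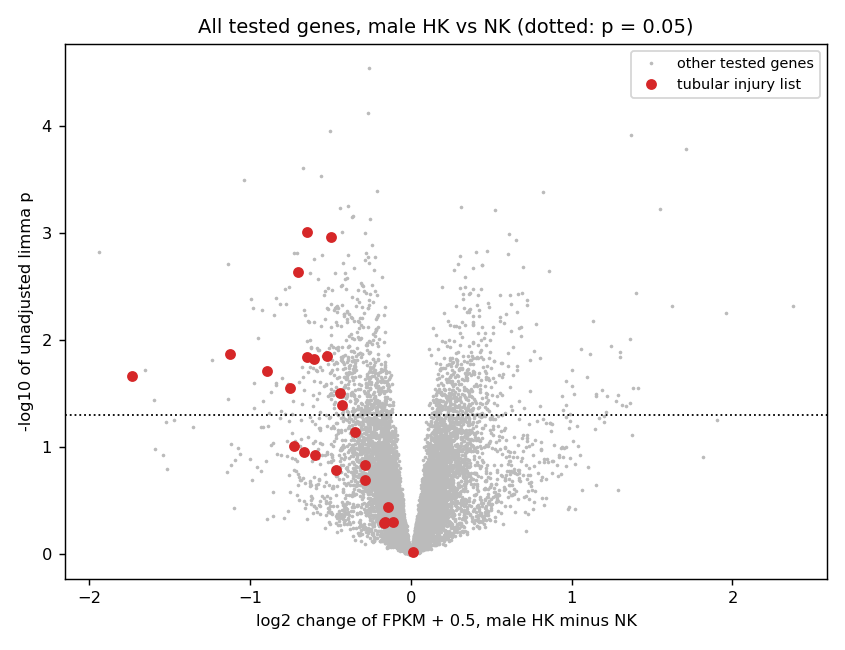
Log2 difference between male HK and NK (x axis) against -log10 of the unadjusted limma p (y axis) for the 14264 tested genes, with the tubular injury list in red. The dotted line marks the unadjusted threshold of 0.05. Above it lie 1076 genes, 12 of the 24 injury genes among them, all on the side lower in HK.

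Genes that mark injured tubules mostly lay below NK. Of the 24 tested genes of the tubular injury list, 23 were below 0 on the log2 scale, and 12 were lower at an unadjusted p under 0.05 with 0 higher, where 4.24% of all tested genes were lower. The median log2 difference of the list was -0.51, against 0.0051 for all tested genes. The same number of members, 12, was lower under each of 3 other scalings of the libraries.

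Havcr1 (ENSRNOG00000007243) encodes kidney injury molecule 1, which damaged proximal tubule cells display on their surface. It ranged from 54.0 to 111 FPKM in NK, with a median of 76.3, and from 24.9 to 107 FPKM in HK, with a median of 28.6. In HK, 5 libraries lay at 24.9 to 30.4 FPKM, below every NK library, while replicate 5 lay within the NK range. The log2 difference was -1.12 (SE 0.43, limma unadjusted p = 0.0136, adjusted p = 0.604), and it was -1.45 without HK replicate 5 (adjusted p = 0.118). Lcn2 (ENSRNOG00000013973), which encodes the secreted injury marker neutrophil gelatinase-associated lipocalin, ranged from 48.8 to 115 FPKM in NK (median 71.3) and from 25.2 to 113 FPKM in HK (median 31.7). The pattern over libraries was that of Havcr1, with 5 HK libraries at 36.6 FPKM or less. Its log2 difference was -0.89 (SE 0.36, limma adjusted p = 0.604) with all libraries and -1.20 without HK replicate 5.

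Secreted and matrix-linked injury genes followed the same order of libraries. Spp1, which encodes osteopontin, was the most abundant of those named here, at 2896 to 6409 FPKM in NK (median 4364) and 1768 to 6648 FPKM in HK (median 2207). Clu, which encodes the chaperone clusterin, ranged from 440.5 to 664 FPKM in NK and from 289 to 980.4 FPKM in HK, with medians of 578 and 307. HK replicate 5 held the highest value of all 12 libraries for both, and the other 5 HK libraries lay below all NK libraries. Timp1, an inhibitor of matrix metalloproteinases, had medians of 52.1 FPKM in NK and 26.5 FPKM in HK, and 4 HK libraries lay below the NK range of 29.9 to 66.4 FPKM. The log2 differences of Spp1, Clu and Timp1 were -0.75 (SE 0.32), -0.60 (SE 0.23) and -0.64 (SE 0.25), with limma adjusted p between 0.604 and 0.627.

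Hmox1, the inducible heme oxygenase, had the lowest estimate of the named injury genes and the widest spread. Its NK libraries ran from 21.4 to 439 FPKM around a median of 53.8, and its HK libraries from 10.3 to 90.9 FPKM around a median of 14.8. The value of 439 came from NK replicate 5 and that of 90.9 from HK replicate 5, and the other HK libraries were at 17.5 FPKM or less. The log2 difference was -1.73 (SE 0.72, limma adjusted p = 0.604).

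Plin2, which coats lipid droplets, was the member whose groups did not overlap: 47.4 to 75.1 FPKM in NK (median 55.9) against 38.5 to 44.9 FPKM in HK (median 40.5). For this gene HK replicate 5 was the lowest of the 12 libraries. The log2 difference was -0.49 (SE 0.14, limma adjusted p = 0.549). Over all tested genes, 60 (0.421%) had groups that did not overlap, 26 higher in HK (0.182%) and 34 lower (0.238%). Anxa2, a calcium-dependent membrane protein, ranged from 86.3 to 149 FPKM in NK and from 56.9 to 134 FPKM in HK, and its difference of -0.64 (adjusted p = 0.549) became -0.82 (adjusted p = 0.0376) without HK replicate 5. Tnfrsf12a, the receptor for the cytokine TWEAK, had medians of 78.8 FPKM in NK and 46.0 FPKM in HK and a log2 difference of -0.70 (SE 0.21, limma adjusted p = 0.549). Cd44, a hyaluronan receptor, and Vim, the intermediate filament vimentin, were lower by 0.52 and 0.44 on the log2 scale, each with HK replicate 5 inside or above the NK range.

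**Figure D2:**
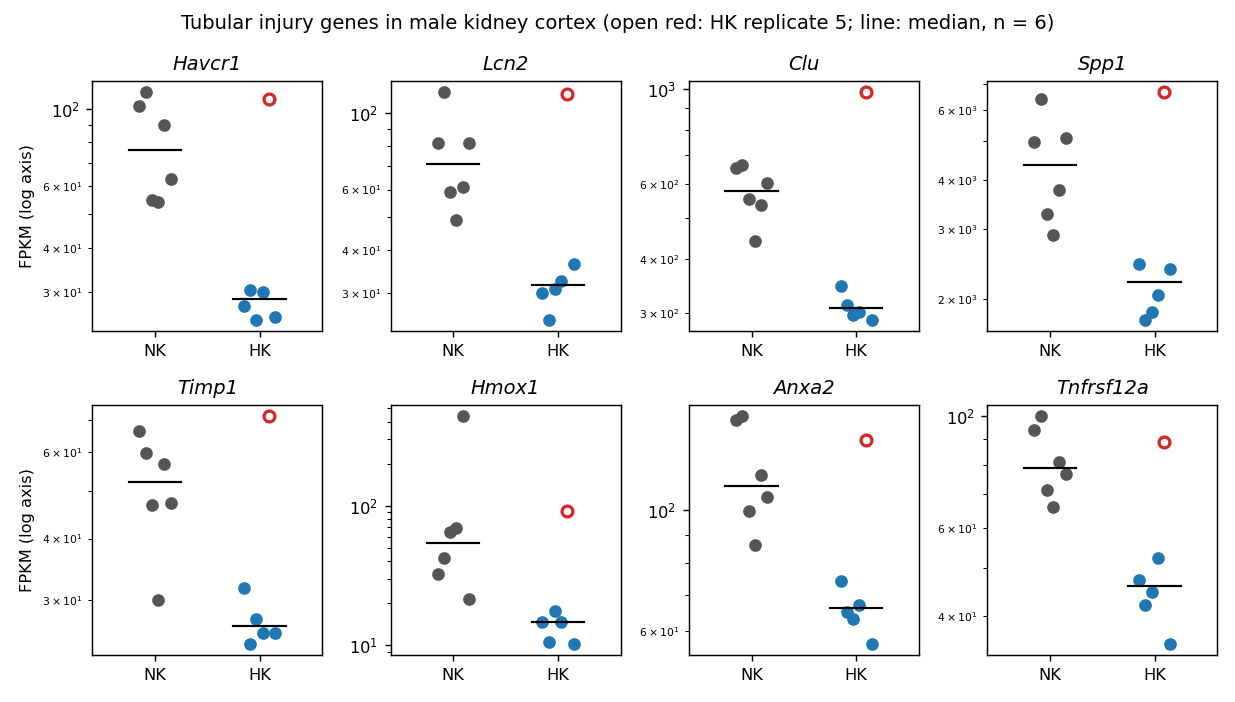
FPKM on a log axis of tubular injury genes in the 6 male NK and 6 male HK libraries, 1 point per library, with the median as a line and HK replicate 5 as an open red circle. For Havcr1 and Lcn2, 5 HK points sit below all NK points and the open circle sits among them, at 107 and 113 FPKM.

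Within the list, libraries rather than single genes stood apart. In the 5 other HK libraries, 21 to 24 of the 24 members were below the NK median, but in HK replicate 5 only 3 were. The summed level of the list was 4491 to 8584 FPKM over the NK libraries, the upper end being NK replicate 2, and 9281 FPKM in HK replicate 5. Its median over the HK libraries was 3285 FPKM. Without HK replicate 5, 17 members were lower at an unadjusted p under 0.05 (7.42% of all genes were lower and 6.37% higher at that p), with a median of -0.64. Without NK replicate 2 the count was 7 and the median -0.43, and without HK replicate 2 it was 8. Among libraries with sample numbers of 340 and above, which leaves out 2 of each group, the count was 3 and the median -0.42, and 1.35% of all genes were lower at that p. The mitochondrial share, lowest in HK replicate 5 and NK replicate 2, moved with the summed level in these libraries; its part in the difference was not tested.

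Other gene groups known to respond to tissue damage lay on the same side, with smaller values. Of 24 tested macrophage and myeloid genes, 21 were below 0 with a median of -0.25, and 5 were lower at an unadjusted p under 0.05 with 0 higher, where 4.24% of all tested genes were lower. Gpnmb, a glycoprotein of phagocytes, had a range of 16.1 to 24.3 FPKM in NK (median 22.6) and of 11.4 to 27.7 FPKM in HK (median 12.04). Its highest HK value was again replicate 5, above all NK libraries, and the others lay below them. The lipopolysaccharide receptor Cd14 and the complement gene C1qb were lower by 0.39 and 0.46 on the log2 scale (limma adjusted p = 0.604 for both). The summed level of 26 macrophage genes was 1367 to 1947 FPKM in HK and 1590 to 1993 FPKM in NK, and none of them was at 0 in all libraries. The count of 5 became 13 without HK replicate 5, where 7.42% of all genes were lower, and 9 without NK replicate 4. It was 2 without HK replicate 2, 3 or 6 or NK replicate 2, and 3 without HK replicate 4 or NK replicate 1 or 5. With numbers of 340 and above 0 were lower and 1 higher, where 1.35% of all tested genes were lower, and the median was -0.18. Whether the number of macrophages differed was not tested.

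Matrix genes had 26 of 27 members below 0, a median of -0.24 and 3 lower at an unadjusted p under 0.05. Over all tested genes 4.24% were lower at that p, for this list and the next 2. The share was 7.42% without HK replicate 5 and 1.35% with numbers of 340 and above. The matrix count was 11 without HK replicate 5, 6 without NK replicate 4 and 1 without HK replicate 2 or 3. With numbers of 340 and above it was 0, with 4 members above 0 and a median of -0.13. Interferon-responsive genes had 23 of 25 below 0, a median of -0.11 and 2 lower. The 2 were the transcription factor Irf1 (-0.33) and the guanylate-binding protein Gbp2 (-0.40), with limma adjusted p of 0.604 and 0.549. Without HK replicate 5 the count was 7, without NK replicate 4 it was 4, and without HK replicate 2 or 3 it was 1. With numbers of 340 and above it was 0, with 6 members above 0 and a median of -0.05. Of 20 immediate early and stress genes, 19 were below 0, with a median of -0.35 and 6 lower. The count ran from 4 to 9 as each library was left out. It was 3 with numbers of 340 and above, where all 20 were below 0. Jund, an AP-1 subunit, ranged from 212 to 236 FPKM in NK and from 149.5 to 218 FPKM in HK, and 5 HK libraries lay below all NK libraries. Its log2 difference was -0.34 (SE 0.11, limma adjusted p = 0.549), and that of Myc, a growth-promoting transcription factor, was -0.60 (SE 0.21, adjusted p = 0.55).

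Genes of cell division also lay below NK. All 22 tested members of the proliferation list were below 0 with the 12 libraries, under every scaling tried, and 7 were lower at an unadjusted p under 0.05, against 4.24% of all tested genes. The median was -0.24, and by the list median 5 of the 6 HK libraries lay below all NK libraries. Plk1 (ENSRNOG00000018815), the mitotic kinase, ranged from 2.15 to 3.47 FPKM in NK (median 2.90) and from 1.39 to 1.85 FPKM in HK (median 1.58). The 2 groups did not overlap, and HK replicate 5, at 1.72 FPKM, lay with its own group. On the log2 scale Plk1 differed by -0.67 (SE 0.16, limma unadjusted p = 0.000246, adjusted p = 0.549). The count of 7 was 3 without NK replicate 1 and 4 without HK replicate 3. A single member turned above 0 without HK replicate 2, 3 or 5 or NK replicate 1 or 2. With numbers of 340 and above 1 was lower, where 1.35% of all tested genes were. In that fit 5 members were above 0 and the median was -0.11.

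**Figure D3:**
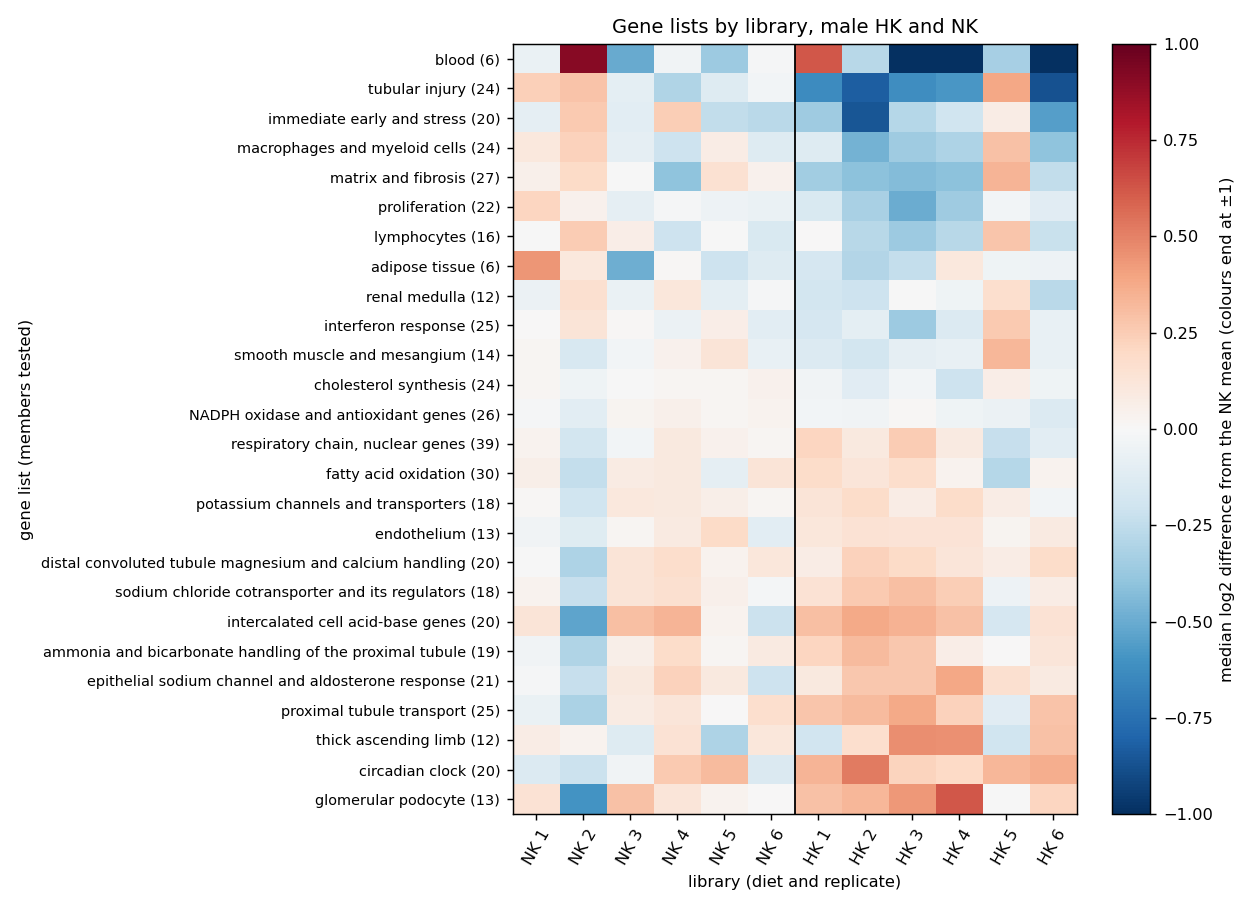
Median log2 difference from the NK mean for each gene list (rows, with the number of members tested) in each male library (columns), with colours ending at 1 and -1. The tubular injury row is below 0 in 5 HK libraries, down to -0.87, and reaches 0.39 in HK replicate 5, and the podocyte row reaches -0.60 in NK replicate 2.

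Transport genes mostly stood slightly above NK, without a call. On a panel of 30 tested transport, regulatory and injury genes, 24 were above 0 and 6 below, or 22 and 8 when libraries were scaled to equal sums of reads. At an unadjusted p under 0.05, 6 were higher and 2, Havcr1 and Lcn2, lower, where 3.3% and 4.24% of all tested genes were. The intervals of 27 of the 30 lay within 2-fold and those of 7 within 1.5-fold. The 6 were Klhl3, Scnn1a, Scnn1b, Rhcg, Slc9a3 and Slc34a1. The panel median was 0.26, and 0.16 without NK replicate 2, which leaves 1 gene higher at that p. The 6 higher genes were 3 without HK replicate 2, 10 without NK replicate 3 and 11 without NK replicate 4.

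In the proximal tubule, which reabsorbs most of the filtered load, 22 of 25 transport genes were above 0 with a median of 0.22, and 4 were higher and 1 lower at an unadjusted p under 0.05, where 3.3% and 4.24% of all tested genes were. Slc34a1, the main apical phosphate transporter, ranged from 793 to 1622 FPKM in NK (median 1295) and from 1061 to 1982 FPKM in HK (median 1718). Leaving aside HK replicate 5, the lowest of its group, each HK library exceeded every NK library. Its estimate was a log2 difference of 0.41 (SE 0.16, limma adjusted p = 0.604). Slc9a3, the sodium-hydrogen exchanger of the brush border, ranged from 12.2 to 25.5 FPKM in NK (median 20.9) and from 18.6 to 32.8 FPKM in HK (median 28.3). It had the same order of libraries and a log2 difference of 0.51 (SE 0.18, adjusted p = 0.588). The water channel Aqp1 and the neutral amino acid transporter Slc6a19 were higher by 0.21 and 0.48 on the log2 scale. The count of 4 higher genes was 7 without HK replicate 5 and 2 without HK replicate 3. Pck1 and Slc38a3, which serve ammonia production, gave 0.21 (SE 0.25) and 0.02 (SE 0.37), and both changed sign under at least 1 alternative.

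In the distal convoluted tubule, 15 of 18 genes of the sodium chloride cotransporter and its regulators were above 0, with a median of 0.12. With libraries scaled to equal sums 12 of 18 were above 0 and the median was 0.08, and without NK replicate 2 the median was 0.07. Slc12a3 (ENSRNOG00000057072), the thiazide-sensitive cotransporter itself, ranged from 34.9 to 120.5 FPKM in NK (median 99.5) and from 89.6 to 132 FPKM in HK (median 116). The groups overlapped, and the lowest NK value was replicate 2, with the other 5 at 87.9 FPKM or more. HK exceeded NK by 0.34 on the log2 scale, with a 95% interval from -0.08 to 0.77 (limma adjusted p = 0.722). Klhl3, the adaptor that marks WNK kinases for degradation, was the member higher at an unadjusted p under 0.05, with 1.87 to 8.60 FPKM in NK (median 5.31) and 5.53 to 8.95 FPKM in HK (median 8.31). Its lowest NK value was replicate 2 and its lowest HK value replicate 5. The difference was 0.55 (SE 0.23, adjusted p = 0.604), and 0.30 without NK replicate 2.

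The kinases above the cotransporter gave small differences. Wnk1 ranged from 19.7 to 36.1 FPKM in NK and from 28.2 to 38.0 FPKM in HK, and 4 HK libraries exceeded every NK library (0.28, SE 0.14, limma adjusted p = 0.664). Wnk4 and Stk39, which encodes the kinase SPAK, gave 0.09 and 0.15, with 95% intervals of -0.16 to 0.35 and -0.07 to 0.37. At an unadjusted p under 0.05, 1 list member was higher, where 3.3% of all tested genes were. Without HK replicate 5 the count was 6, where 6.37% of all tested genes were higher. It was 4 without NK replicate 3 or 4, 3 without HK replicate 6, 2 without NK replicate 5 or 6 and 0 without NK replicate 2. In those fits 312 to 622 of the 14264 tested genes were higher. Calb1, the calcium-binding protein of distal cells, ranged from 19.5 to 104 FPKM in NK (median 73.9) and from 93.3 to 128 FPKM in HK (median 108). Its difference of 0.74 (SE 0.33, adjusted p = 0.631) was 0.40 without NK replicate 2, the library at 19.5 FPKM.

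Potassium channels did not reach an unadjusted p under 0.05 in either direction: 0 of 18 tested, with 11 above 0 and a median of 0.09. Of all tested genes, 3.3% were higher and 4.24% lower at that p. Without HK replicate 5, 2 channels were higher and 1 lower, where 6.37% and 7.42% of all tested genes were. Without NK replicate 3 or 4, 2 were higher, and without HK replicate 6 or NK replicate 5 or 6, 1 was higher. In those fits 370 to 622 of the 14264 tested genes were higher. Weights per library gave 4 channels higher and 1 lower, where 1425 and 1493 of the 14264 tested genes were. The list median was 0.062 without NK replicate 2 and 0.047 with equal sums. Kcnj1, the secretory channel ROMK, ranged from 43.4 to 66.1 FPKM in NK (median 51.8) and from 47.3 to 83.4 FPKM in HK (median 67.7), and 4 HK libraries exceeded all NK libraries. Kcnj1 thus had a log2 difference of 0.29 (SE 0.16, limma adjusted p = 0.677). The basolateral subunits Kcnj10 (Kir4.1), Kcnj16 (Kir5.1) and Kcnj15 (Kir4.2) gave 0.40 (SE 0.25), 0.27 (SE 0.14) and 0.43 (SE 0.24), with adjusted p between 0.683 and 0.745. In the thick ascending limb, the cotransporter gene Slc12a1 gave 0.30 (SE 0.24), with 2 HK libraries above the NK range.

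For ENaC, all 3 subunits were above 0. Scnn1a ranged from 8.86 to 18.5 FPKM in NK (median 16.6) and from 15.8 to 23.7 FPKM in HK (median 18.3). Scnn1b ranged from 6.85 to 15.9 FPKM in NK (median 15.5) and from 15.4 to 19.6 FPKM in HK (median 17.4), and Scnn1g had medians of 11.7 and 13.7 FPKM. NK replicate 2 held the lowest value for each subunit, and 5 HK libraries exceeded the NK maximum of Scnn1b. The log2 differences were 0.33 (SE 0.15), 0.37 (SE 0.16) and 0.31 (SE 0.17), with limma adjusted p of 0.65, 0.631 and 0.677. Without NK replicate 2 those of Scnn1a and Scnn1b were both 0.19.

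Of the 21 tested genes of the ENaC and aldosterone list, 19 were above 0, with a median of 0.21. The mineralocorticoid receptor gene Nr3c2 gave 0.34 (SE 0.18), and Hsd11b2, which keeps glucocorticoids off that receptor, 0.10 (SE 0.15). Sgk1, the aldosterone-induced kinase that stabilises ENaC, ranged from 26.1 to 95.4 FPKM in NK and from 32.9 to 87.2 FPKM in HK, a log2 difference of -0.12 (SE 0.27) whose sign depended on the libraries used. Hsd11b2 turned below 0 without NK replicate 2. The vasopressin-regulated water channel genes Aqp2 and Aqp3 gave 0.26 (SE 0.32) and 0.14 (SE 0.26). In all, 3 of the 21 were higher at an unadjusted p under 0.05 and 0 lower, where 3.3% and 4.24% of all tested genes were. The 3 became 1 without HK replicate 2 or NK replicate 2 and 6 without NK replicate 4.

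**Figure D4:**
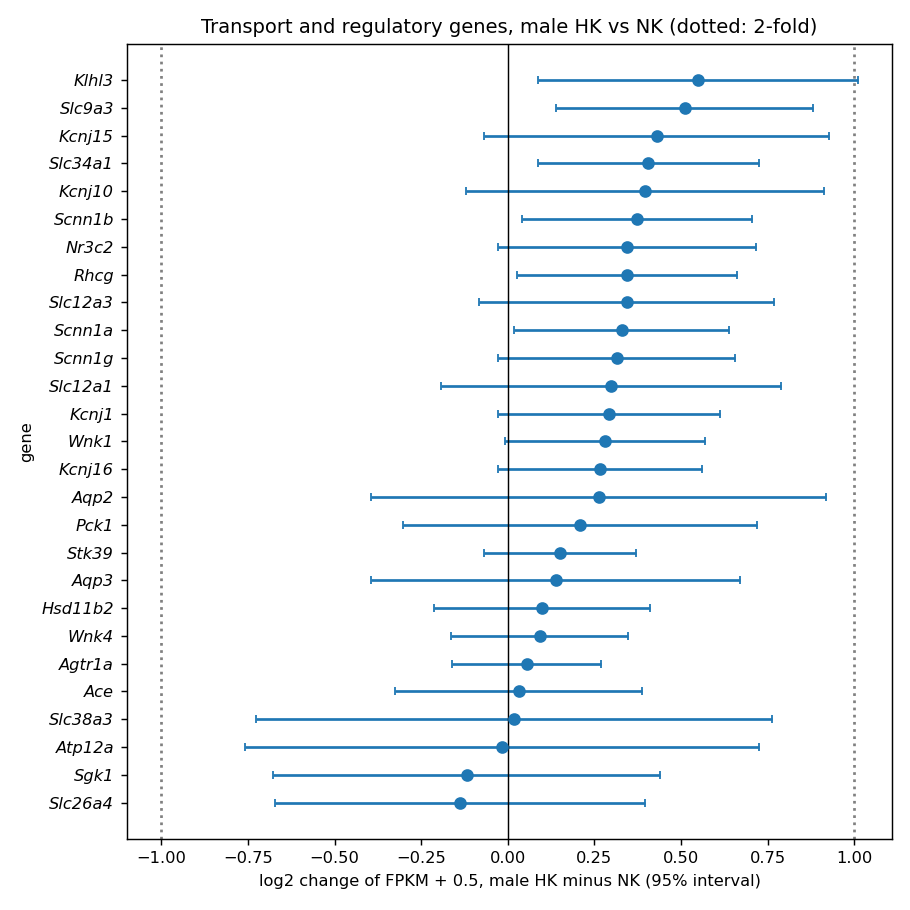
Log2 difference between male HK and NK (x axis) with its 95% interval for transport and regulatory genes (rows); the dotted lines mark a 2-fold change. Most points lie between 0 and 0.55, and the interval of Klhl3, up to 1.01, is the one that crosses a dotted line; Havcr1 and Lcn2, the other panel genes with intervals beyond 2-fold, are not drawn.

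Intercalated cells, which secrete acid or base, had 17 of 20 genes above 0 with a median of 0.19 and 4 higher at an unadjusted p under 0.05, where 3.3% of all tested genes were. Slc4a1, the basolateral anion exchanger of acid-secreting cells, ranged from 16.0 to 31.5 FPKM in NK (median 24.6) and from 19.9 to 40.7 FPKM in HK (median 33.0). HK replicate 5 was the lowest of its group and 3 HK libraries exceeded all NK libraries. This gave a log2 difference of 0.40 (SE 0.17, limma adjusted p = 0.618). The ammonia channel Rhcg gave 0.34 (SE 0.16), the proton pump subunit Atp6v1c2 0.42 (SE 0.17), and Slc26a4, the anion exchanger pendrin of base-secreting cells, -0.14 (SE 0.26). Without NK replicate 2 the median was 0.08. The count of 4 was 0 without HK replicate 2 or NK replicate 2, 1 without HK replicate 3, and 2 without HK replicate 4 or NK replicate 6. It was 8 without HK replicate 5 or NK replicate 4 and 7 without NK replicate 3.

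Podocytes, the filtering cells of the glomerulus, had 12 of 13 genes above 0 and 6 higher at an unadjusted p under 0.05, where 3.3% of all tested genes were. The median was 0.31. Podxl, a sialomucin of foot processes, ranged from 13.8 to 27.5 FPKM in NK (median 22.1) and from 22.2 to 37.1 FPKM in HK (median 30.5). HK replicate 5 was the lowest HK library and NK replicate 2 the lowest of all 12. The log2 difference was 0.48 (SE 0.16, limma adjusted p = 0.549). Nphs1, the slit diaphragm protein nephrin, gave 0.50 (SE 0.18). Synpo, an actin-binding protein of foot processes, was higher in each HK library than in any NK library by a narrow margin, 16.1 to 20.9 FPKM against 10.8 to 16.1 FPKM. Without NK replicate 2 the list median was 0.19 and 1 member was higher at that p. The summed level of the list was 161.9 FPKM in NK replicate 2, the lowest, and 286.7 FPKM at most in NK, against 232.8 to 340.8 FPKM in HK. The share of glomeruli in each piece of cortex was not measured.

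Several genes of the circadian clock lay above NK. The labels do not give the time of day of collection, and its part in these values was not tested. The clock is a feedback loop in which BMAL1 (the product of Arntl) and CLOCK bind E-box sequences of the form CACGTG and switch on genes that include their own repressors. Of 20 tested members, 16 were above 0, and 9 were higher and 2 lower at an unadjusted p under 0.05, where 3.3% and 4.24% of all tested genes were. The median was 0.31. The number of 9 was the highest of the lists, and as a share the clock list had 45% and the podocyte list 46.2%.

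Promoter sequence is shown here for a pair of these genes because they carry the E-box and were among the 9. RefSeq windows of 300 bases (250 before to 50 after the start, build GRCr8) were matched for 17 clock genes. CACGTG, which reads the same on both strands, occurred for 5 of these 17 genes (29.4%). Of all 33469 windows, 6.42% held it. The share for clock genes is counted per gene and the share for all windows per window. They are therefore not like for like, and enrichment was not tested. Ciart held 3 copies, and 19 windows in all held 3 or more. Both stretches are printed along the gene's strand, with the CACGTG in capitals.
Ciart, chr2:186112247-186112356, minus strand: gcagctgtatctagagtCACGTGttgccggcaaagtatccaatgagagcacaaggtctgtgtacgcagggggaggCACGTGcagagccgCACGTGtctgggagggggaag
Tef, chr7:115206607-115206656, plus strand: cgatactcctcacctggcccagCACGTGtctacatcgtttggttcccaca
The copies of Ciart begin 93, 35 and 21 bases before its start and that of Tef 198 bases before. A match of letters is not a measured binding site.

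Among the repressors, Ciart (ENSRNOG00000042717), whose product inhibits BMAL1 and CLOCK, ranged from 0.513 to 3.73 FPKM in NK (median 0.921) and from 1.86 to 6.06 FPKM in HK (median 3.12). The groups overlapped, since NK replicates 4 and 5 reached 2.73 and 3.73 FPKM. On the log2 scale it was higher by 1.001 (SE 0.41, limma adjusted p = 0.604). Per2, a period protein that closes the loop, ranged from 6.82 to 15.1 FPKM in NK (median 8.30) and from 11.8 to 21.4 FPKM in HK (median 14.3). Here too NK replicate 5, at 15.1 FPKM, lay within the HK range, and the difference was 0.66 (SE 0.22, adjusted p = 0.549). Per3 and the cryptochrome Cry2 gave 0.52 (SE 0.20) and 0.33 (SE 0.16).

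Output genes of the clock had the same sign. Dbp, a PAR bZIP transcription factor, ranged from 66.0 to 176 FPKM in NK (median 100.1) and from 135 to 230.2 FPKM in HK (median 154). Its relative Tef had medians of 28.4 and 41.8 FPKM, and the deubiquitinase Usp2, also on the aldosterone list, 6.59 and 12.6 FPKM. For all 3, NK replicate 5 was the highest NK library and HK replicate 2 the highest HK library. The log2 differences were 0.62 (SE 0.29), 0.49 (SE 0.19) and 0.78 (SE 0.27), with limma adjusted p of 0.652, 0.604 and 0.553.

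Arntl itself, in the activating arm, had the opposite sign: 1.82 to 4.71 FPKM in NK (median 3.85) and 1.18 to 3.12 FPKM in HK (median 1.96). In HK, 3 libraries lay below all NK libraries, and the lowest NK value was replicate 5. Its log2 difference was -0.64 (SE 0.26, limma adjusted p = 0.604), and that of Nfil3, a repressor of the Dbp-bound sites, was -0.66 (SE 0.29, adjusted p = 0.631). By the list median, 4 HK libraries exceeded all NK libraries, and HK replicate 5 was one of them. The 9 higher members became 3 without HK replicate 2, 4 without NK replicate 6 and 5 without NK replicate 1, 2 or 3. With libraries scaled to equal sums they were 6, with numbers of 340 and above 4, and no clock gene was called under weights per library.

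Some genes are named for their p alone, whatever their function. Nudt21 (ENSRNOG00000042983), a subunit of the complex that chooses where messenger RNA is cleaved, had the smallest p: 22.7 to 26.4 FPKM in NK (median 25.2) against 19.4 to 23.1 FPKM in HK (median 20.6). The groups met at HK replicate 5, the single HK library above the NK minimum. Its log2 difference was -0.26 (SE 0.05, limma unadjusted p = 2.9e-05, adjusted p = 0.413). Without HK replicate 5 it was -0.29 (adjusted p = 0.0376). Snx4, a sorting nexin of endosomal recycling, ranged from 16.7 to 19.5 FPKM in NK and from 13.9 to 17.6 FPKM in HK, and Kdm1a, a histone demethylase, from 13.8 to 15.9 and from 11.1 to 15.6 FPKM. In both, HK replicate 5 was the highest HK library and the other 5 lay below all NK libraries. They gave -0.26 (SE 0.06, adjusted p = 0.43) and -0.25 (SE 0.07, adjusted p = 0.549), and both were -0.31 (adjusted p = 0.0376) without that library.

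Further genes of this kind that were lower in HK were Prr13 (-0.50, SE 0.11), the nuclear protein Pir (-0.56, SE 0.14), the tropomyosin Tpm3 (-0.21, SE 0.05), the nuclear lamin Lmnb2 (-0.39, SE 0.10) and the growth factor Pdgfb (-0.44, SE 0.12). Their limma adjusted p was between 0.43 and 0.549. Mex3d, which encodes an RNA-binding protein, gave -0.36 (SE 0.10) and had groups that did not overlap, 9.21 to 12.1 FPKM in NK and 7.08 to 8.95 FPKM in HK.

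Inmt (ENSRNOG00000011250), which encodes a methyltransferase of indoles and thioethers, had the smallest p of the named genes on the higher side. It ranged from 34.6 to 49.0 FPKM in NK (median 44.9) and from 63.5 to 90.9 FPKM in HK (median 74.7). The groups did not overlap, and HK replicate 5, at 67.8 FPKM, lay with its own group. The mean log2 level was higher by 0.82 (SE 0.21, limma unadjusted p = 0.000414, adjusted p = 0.549). Fitted on the 12 male libraries alone, the smallest adjusted p of any gene was 0.0619. Cyp1a1, a monooxygenase induced through the aryl hydrocarbon receptor, ranged from 0.646 to 1.83 FPKM in NK (median 1.08) and from 1.31 to 8.03 FPKM in HK (median 5.02). A single HK library lay within the NK range, and the difference was 1.55 (SE 0.41, adjusted p = 0.549). Slc6a17, an amino acid transporter, and Med17, a Mediator subunit, gave 0.53 (SE 0.14) and 0.31 (SE 0.08).

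The female groups on the same diets (6 NK and 5 HK libraries) tell whether these differences were shared. In females 0 genes were called and 381 (2.67%) had an unadjusted p under 0.05. The interaction between sex and diet called 0 genes in limma (smallest adjusted p = 0.709), with 805 (5.64%) at an unadjusted p under 0.05. With weights per library it called 6, among them Clu, Snx4 and Plk1. For the tubular injury list the female median was 0.19, with 21 of 24 members above 0, and the interaction had an unadjusted p under 0.05 for 10 of 24. Havcr1 averaged 25.6 ± 13.6 FPKM in female NK (SD, n = 6) and 42.9 ± 22.0 FPKM in female HK (n = 5), a log2 difference of 0.73. The difference between the sexes in that response was -1.85 (limma unadjusted p = 0.0055, adjusted p = 0.86), so the opposite signs did not pass the test.

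Sample numbers are unevenly spread over the female diets. Of the 6 female NK libraries, 4 have numbers in the 200s, while no female HK library has one, and what the numbers stand for is not stated. Series and diet are thus partly tied in females and cannot be fully told apart. When the series entered the model as a covariate, the interaction had an unadjusted p under 0.05 for 385 genes (2.7%). With numbers of 340 and above it had such a p for 303 (2.12%). That restriction keeps only replicates 4 and 6 of female NK and replicates 1, 2 and 3 of female HK. With so few female libraries, smaller counts or medians there cannot tell whether a sex difference is absent. For the injury list these fits gave 5 and 0 of 24, with female medians of 0.06 and -0.09. Havcr1 differed by 0.55 and 0.05 in females.

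For the clock list the female median was -0.26, and each of the 20 members had the opposite sign from males when the number series was not in the model. The interaction had an unadjusted p under 0.05 for 14 of 20, where 5.64% of all tested genes had, and the smallest adjusted p among them was 0.86. The opposite signs held for fewer members once the number series was considered. With the series as a covariate the female median was 0.08, 8 of 20 members had the opposite sign and the interaction had such a p for 1. With numbers of 340 and above these were 0.098, 8 and 2, from the few female libraries named above. Arntl averaged 1.68 ± 0.771 FPKM in female NK and 2.995 ± 0.914 FPKM in female HK. The log2 difference of Arntl was 0.70 in females and -0.64 in males. For that gap the limma interaction gave an adjusted p of 0.86 (0.00123 unadjusted). Ciart differed by -0.87 in females and 1.001 in males, and Per2 by -0.36 and 0.66. With the series as a covariate the female values were 0.096 for Arntl, 0.15 for Ciart and 0.014 for Per2. The differences between the sexes were then -0.73, 0.85 and 0.65 (limma unadjusted p = 0.075, 0.171 and 0.0843, adjusted p = 0.9998 for each). Among numbers of 340 and above, Arntl kept opposite signs, at 0.47 in females and -0.81 in males. Ciart and Per2 did not, at 0.19 and 0.17 in females and 0.90 and 0.67 in males. Plk1 had the smallest unadjusted interaction p of the named genes, 9.94e-05 (adjusted p = 0.709), at 0.38 in females against -0.67 in males, and the female value was 0.31 with the covariate. ENaC subunits had the same sign in both sexes, 0.35, 0.28 and 0.12 in females for Scnn1a, Scnn1b and Scnn1g.

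**Figure D5:**
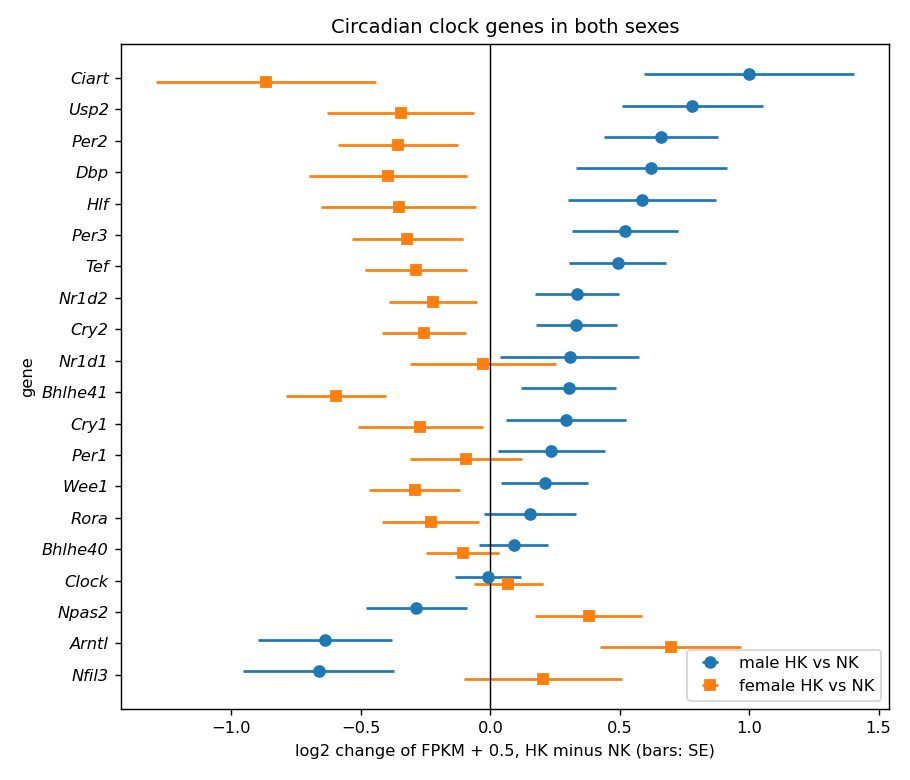
Log2 difference between HK and NK (x axis, bars show the SE) for the circadian clock genes (rows) in males (blue circles) and females (orange squares). Each gene has its male and female points on opposite sides of 0, such as Arntl at -0.64 and 0.70. The fit shown has no term for the number series, and with one 8 of 20 genes had opposite signs.

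The potassium-deficient male group was compared with the same 6 NK libraries, so its values are set beside these with no relation drawn. That comparison called 680 of 14264 genes (4.77%). Of the 6 male DK libraries, 5 have numbers in the 200s and 1 does not, while no male NK library has such a number, so diet and number series can hardly be told apart there. Pck1 and Slc38a3 gave 1.53 and 1.70 on DK and 0.21 and 0.02 on HK, and Slc26a4 gave 1.01 and -0.14. Plk1 gave -1.07 on DK and -0.67 on HK, Cyp1a1 2.38 and 1.55, Havcr1 -0.85 and -1.12, and Lcn2 0.06 and -0.89. By list, the DK and HK medians were -0.19 and -0.51 for tubular injury, -0.58 and -0.24 for proliferation, 0.65 and 0.19 for intercalated cells and 0.27 and 0.31 for the clock. Because both comparisons use the NK libraries, a value peculiar to those libraries enters both.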

How the data were processed

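Per the labels' protocols, Trizol was used for extraction, poly-T beads for messenger RNA and Illumina instruments for sequencing. The protocols cover directional and non-directional libraries without saying which kind was made. Reads of overlapping or antisense genes therefore cannot be told apart. The submitters' processing notes name featureCounts 1.5.0-p3, HISAT2 2.0.5, fastp and StringTie 1.3.3b. For the genome build, the sources used here give none. The authors deposited 1 table of FPKM values with gene lengths. FPKM times length came to whole reads (tolerance 0.01 read) for 100% of values. The authors' library size was 1.03 to 1.16 times the summed reads in the 12 male libraries, so the values carry a scaling by the authors.

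FPKM values were used as log2 of FPKM plus 0.5. A limma 3.58.1 fit covered all 35 libraries, with a mean per group (6 groups of sex and diet), a variance trend and 29 residual degrees of freedom. Fold changes on this scale understate the change of low genes. Benjamini-Hochberg adjustment ran over all 14264 genes, and genes were called below an adjusted p of 0.05, with no fold minimum. Library measures were compared by exact permutation. The fit was tested on simulated data. Pairs of libraries within a group differed by more than sampling noise (chi-square per gene of at least 8.89), so none was a copy. Replicate numbers did not pair the libraries: deviations of same-numbered HK and NK libraries correlated at -0.16 to 0.139.

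The comparison, the gene lists and the named genes were chosen with earlier results of these data known. Genes were named by rule: the 24 of smallest p with a symbol and at least 2 FPKM in the higher group, up to 2 to 4 members per list by p, a fixed transport and injury panel and 10 genes of the sex difference; other genes named in the report, among them Tef, Dbp, Per3, Cry2 and Nfil3, are list members chosen after their values were seen. Of 634 entries in 29 lists, 606 matched by name, 8 by an older symbol and 20 not at all, and 560 were tested. Alternatives were other pseudocounts, filters and scalings, fits of fewer groups, weights per library, a replicate block, the sample-number series, voom on the reads, and leaving out single libraries. Leaving out HK replicate 5 with NK replicate 2 was added after seeing the data. Python 3.11.15 (numpy 2.4.6, pandas 2.3.3, scipy 1.17.1, matplotlib 3.10.9) and R 4.3.3 were used. Results for some single genes were left out of the text.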

Additional observations from a re-analysis of the deposited data

Results flagged for a closer look

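In 24 of 148 groups of 6 libraries, for the 74 genes that were described, a single library lay far from the other 5 by Dixon's test at 95%. Chance flags about 1 in 20 groups. HK replicate 5 was that library in 17 of the 24, at the high end except for Wnk1. Its values were 106.8 FPKM for Havcr1, 113.3 for Lcn2, 6648 for Spp1, 980.4 for Clu, 90.87 for Hmox1, 88.51 for Tnfrsf12a, 134.3 for Anxa2, 71.22 for Timp1, 21.24 for Cd44 and 229.9 for Vim. The macrophage and interferon genes Gpnmb (27.72), Cd14 (9.948), C1qb (52.98) and Gbp2 (15.06) were high in the same library, as were Snx4 (17.61) and Kdm1a (15.64). Wnk1 was low there, at 28.24 FPKM, with the other 5 at 35.7 or more. Since these genes share 1 library, they are not separate observations.

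NK replicate 2 was low for Scnn1b, at 6.853 FPKM, and for Hsd11b2, at 88.61 FPKM with the other 5 at 172.5 or more. NK replicate 1 was low for Med17 (7.109), NK replicate 4 was low for Gpnmb (16.08), and NK replicate 5 was high for Hmox1 (438.9). HK replicate 2 was high for the clock genes Usp2 (22.61) and Ciart (6.06).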

How the results depend on the processing

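No gene was called in the male comparison under the other pseudocounts, filters and scalings, the fits of fewer groups, voom, the number series or sample numbers of 340 and above. With weights per library 387 were called, and 6 for the sex difference, which otherwise called 0. Leaving out each library in turn gave 0 to 5 calls. It gave 1 without NK replicate 3, the gene AC125982.2 (log2 difference 1.68, adjusted p = 0.0171), named after its value was seen. Without HK replicate 5 and NK replicate 2 together there was 1, Nudt21. Genes whose groups did not overlap were 0.421% of those tested, and 0.512% to 4.04% without 1 library, the highest without HK replicate 5. Fewer libraries overlap less by construction. The share was 2.56% with sample numbers of 340 and above and 4.68% without HK replicate 5 and NK replicate 2. Scaling to equal sums of reads moved the median of all genes to -0.04 and the split at an unadjusted p under 0.05 to 286 higher and 1007 lower. With numbers of 340 and above 378 genes had such a p, and leaving out each library gave 678 to 1966.

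With the replicate number as a block the male count was 0, with 1030 at an unadjusted p under 0.05, and that of the sex difference 0. Deviations of 3 of the 6 same-numbered pairs were best matched by their own number, a hint from the data and not the design.

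Over 74 genes and 2070 fits, 2017 gave the same sign and side of the threshold. A call was gained in 41, for 36 genes, all 36 of them called with weights per library. Signs reversed for 4 genes, none of them called. Sgk1 was 0.10 with weights and -0.31 to 0.057 without 1 library, above 0 without NK replicate 4. Hsd11b2 was -0.085 to 0.15 without 1 library, below 0 without NK replicate 2. Without that library and HK replicate 5 it was -0.048 and Pck1 -0.043. Slc38a3 was -0.029 with equal sums, -0.17 with numbers of 340 and above and -0.19 to 0.23 without 1 library, below 0 for 5 of them. The cause was not tested. Precision was limited by 6 libraries a group: the median half-width of a 95% interval was 0.25 on the log2 scale.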

Other observations

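Lists of other cell types and of metabolism had small medians. Endothelial genes had a median log2 difference of 0.10 between male HK and NK and smooth muscle and mesangial genes -0.06. Of these, 0 of 13 and 0 of 14 had an unadjusted p under 0.05, where 7.54% of all tested genes had. Nuclear genes of the respiratory chain had a median of 0.06 over 39 genes and fatty acid oxidation genes 0.06 over 30. Of the 39 respiratory chain genes 32 were above 0, and without HK replicate 5 38 were, with a median of 0.10. Of the 30 fatty acid oxidation genes 1 was higher and 1 lower at an unadjusted p under 0.05, where 3.3% and 4.24% of all tested genes were. Without HK replicate 5 the list counts were 6 and 1, where 6.37% of all tested genes were higher and 7.42% lower. Genes of cholesterol synthesis had a median of -0.05 over 24, and NADPH oxidase and antioxidant genes -0.02 over 26.

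Blood genes had the lowest list median, -0.84 over 6 tested genes, with 5 below 0. At an unadjusted p under 0.05, 1 was lower, where 4.24% of all tested genes were. The count was 4 without HK replicate 1, where 570 of the 14264 tested genes were lower. It was 0 without HK replicate 2, 4 or 6 or NK replicate 1, 2 or 5. By the list median 3 HK libraries lay below every NK library. Hbb, a globin of red cells, ranged from 7.84 to 144.6 FPKM in HK (median 38.0) and from 44.6 to 141.6 FPKM in NK (median 57.6). Whether residual blood differed between the kidneys was not tested. The T cell gene Cd3e ranged from 1.68 to 3.75 FPKM in HK and from 1.93 to 4.52 FPKM in NK. The lymphocyte list had a median of -0.16 over 16 genes, 15 of them below 0. Without NK replicate 2, 11 were below 0 (median -0.10), and without HK replicate 5 all 16 were (median -0.23). With numbers of 340 and above 10 were below 0, and the median was -0.035.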
